A study of Mus musculus with 17 samples.

Results

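Hippocampus RNA of adult offspring was compared between mice born to old mothers and mice born to young mothers. The old-mother side was made of 6 libraries, 3 from offspring of aged mothers and 3 from offspring of aged mothers that had received rapamycin, an inhibitor of the mTOR kinase. The other side was made of 4 libraries from offspring of young mothers. These 10 libraries are all the hippocampus libraries among the 17 of the study, whose other 7 were made from oocytes. They were placed on a side by the mother given in the sample labels, and no expression value was used to choose them.

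All offspring were wild-type CD1 females of 40 to 44 weeks, about 10 months, kept in pathogen-free housing, and the labels name no treatment of the offspring themselves. Rapamycin was given to the mothers, at 2 mg/kg into the peritoneum for 40 weeks from the age of 8 weeks. The age of the mothers when they bore these offspring is not on the hippocampus labels, and no vehicle is named for the untreated mothers. One hippocampus was frozen with RNAlater, and polyadenylated RNA was sequenced with a kit that does not mark strand. In what follows the groups are called the aged-mother, rapamycin and young-mother groups, and the first 2 together the old-mother side, with libraries numbered within each group (aged 1 to aged 3, for example). Whether the libraries of a group are separate animals or litters is not on the labels. A p-value here therefore covers the spread among these 10 libraries and nothing wider, and some of that spread may be technical.

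The hippocampus forms memories of events and places, and its principal neurons lie in the dentate gyrus and in the CA fields. When such neurons fire, calcium and cyclic AMP signals activate transcription factors that are already present, such as CREB and SRF, and these switch on immediate early genes without new protein synthesis. Part of these genes encode transcription factors of the Fos, Jun, Egr and Nr4a families, and others encode proteins that act at synapses or shut the signal off again. Interferon-inducible genes, which also enter the results, encode guanylate-binding proteins, other GTPases and antigen-processing proteins that cells make in response to interferons.

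Reads assigned to genes came to between 16434398 and 20220617 counts per library, and 14322 to 14741 genes had at least 10 counts. Levels are given as counts per 1000000 (CPM) after scaling the libraries with edgeR's TMM factors, and 3 counts correspond to 0.151 to 0.187 CPM. The first principal component carried 45.4% of the variance and did not separate the sides. The level of cytosolic ribosomal protein genes ranged from -0.93 to 0.64 log2 units on the old-mother side and from -0.52 to 0.68 in the young-mother group, relative to the mean of all libraries. Summed markers of dentate granule cells (574 to 871 CPM against 601 to 917 CPM), CA1 (772 to 1444 against 910.0 to 1371 CPM) and CA2 and CA3 pyramidal cells (1237 to 1773 against 1367 to 1702 CPM) were present in every library and overlapped between the old-mother and young-mother sides, in that order.

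The hippocampus of offspring of old mothers, untreated and rapamycin-treated mothers together, had higher levels of 6 immediate early genes than that of offspring of young mothers. Fos, Fosb, Egr2 and Nr4a1, which encode transcription factors, Arc, which controls the trafficking of AMPA receptors at synapses, and Sik1, a kinase that restrains CREB-driven transcription, were 2.45- to 10.3-fold higher. They were the 6 genes of 14683 tested (0.0409%) that passed edgeR's quasi-likelihood test at a Benjamini-Hochberg adjusted p under 0.05. In each of them all 6 old-mother libraries lay above all 4 young-mother libraries, as they did in 98 of the 14683 genes (0.667%). No gene was called lower in edgeR, where 170 genes lay lower at an unadjusted p under 0.05 (1.16%) and 312 higher (2.12%), and DESeq2 called 21 genes higher and 8 lower.

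Fos encodes the partner that pairs with Jun proteins in the AP-1 transcription factor. It stood at 27.4, 37.8 and 61.5 CPM in the aged-mother group, 66.2, 59.4 and 45.3 CPM in the rapamycin group and 5.99, 7.24, 4.53 and 6.61 CPM in the young-mother group. The lowest old-mother library was thus well above the highest young-mother one, and both old-mother groups were high. The log2 fold change of the old-mother side against the young was 3.03 ± 0.27 (standard error), or 8.15-fold (95% interval 5.41 to 12.3), with an edgeR adjusted p of 0.00212. Fosb, a second Fos-family member whose truncated product persists in neurons, stood at 32.5, 33.6 and 53.2 CPM in the aged-mother group, 34.8, 32.7 and 25.3 CPM in the rapamycin group and 9.39, 9.47, 9.76 and 10.1 CPM in the young-mother group. The 4 young-mother values lay within 1 CPM of each other, and the log2 fold change was 1.87 ± 0.19 (edgeR adjusted p = 0.00365). Fos lies on chromosome 12 from 85473890 to 85477273 and Fosb on chromosome 7 from 19302696 to 19310051 (GRCm38). Each is a protein-coding gene that no other annotated gene overlaps.

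Egr2, a zinc-finger transcription factor induced by strong neuronal activity, stood at 9.39, 6.66 and 15.9 CPM in the aged-mother group, 12.2, 10.4 and 13.2 CPM in the rapamycin group and 1.23, 0.309, 1.01 and 1.76 CPM in the young-mother group. It had the largest log2 fold change of the 6 called genes, 3.37 ± 0.38 (edgeR adjusted p = 0.00677). Nr4a1, an orphan nuclear receptor, stood at 121, 98.3 and 172 CPM in the aged-mother group, 102, 115 and 102 CPM in the rapamycin group and 46.1, 47.1, 42.1 and 58.0 CPM in the young-mother group. The smallest difference of the 6 was this one, 1.29 ± 0.17 (edgeR adjusted p = 0.0216). Aged 3 was the highest aged-mother library for all 6 genes. Egr2 lies on chromosome 10 from 67535475 to 67542188 and Nr4a1 on chromosome 15 from 101254269 to 101274795.

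Arc, whose mRNA travels to dendrites, stood at 271, 259 and 403 CPM in the aged-mother group, 232, 320.4 and 280.2 CPM in the rapamycin group and 90.0, 101, 80.0 and 133 CPM in the young-mother group. The sides did not overlap, and the log2 fold change was 1.54 ± 0.19 (edgeR adjusted p = 0.0101). Sik1 stood at 18.7, 19.1 and 24.2 CPM in the aged-mother group, 22.99, 17.4 and 19.01 CPM in the rapamycin group and 8.04, 7.67, 8.76 and 5.27 CPM in the young-mother group, and differed by 1.44 ± 0.16 (edgeR adjusted p = 0.00677). Young 4 was the lowest library for Sik1 and the highest young-mother library for Arc, so the 2 genes did not order the young-mother libraries alike. Arc lies on chromosome 15 from 74669083 to 74672570 and Sik1 on chromosome 17 from 31844250 to 31855804, and neither is overlapped by another gene.

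**Figure D1:**
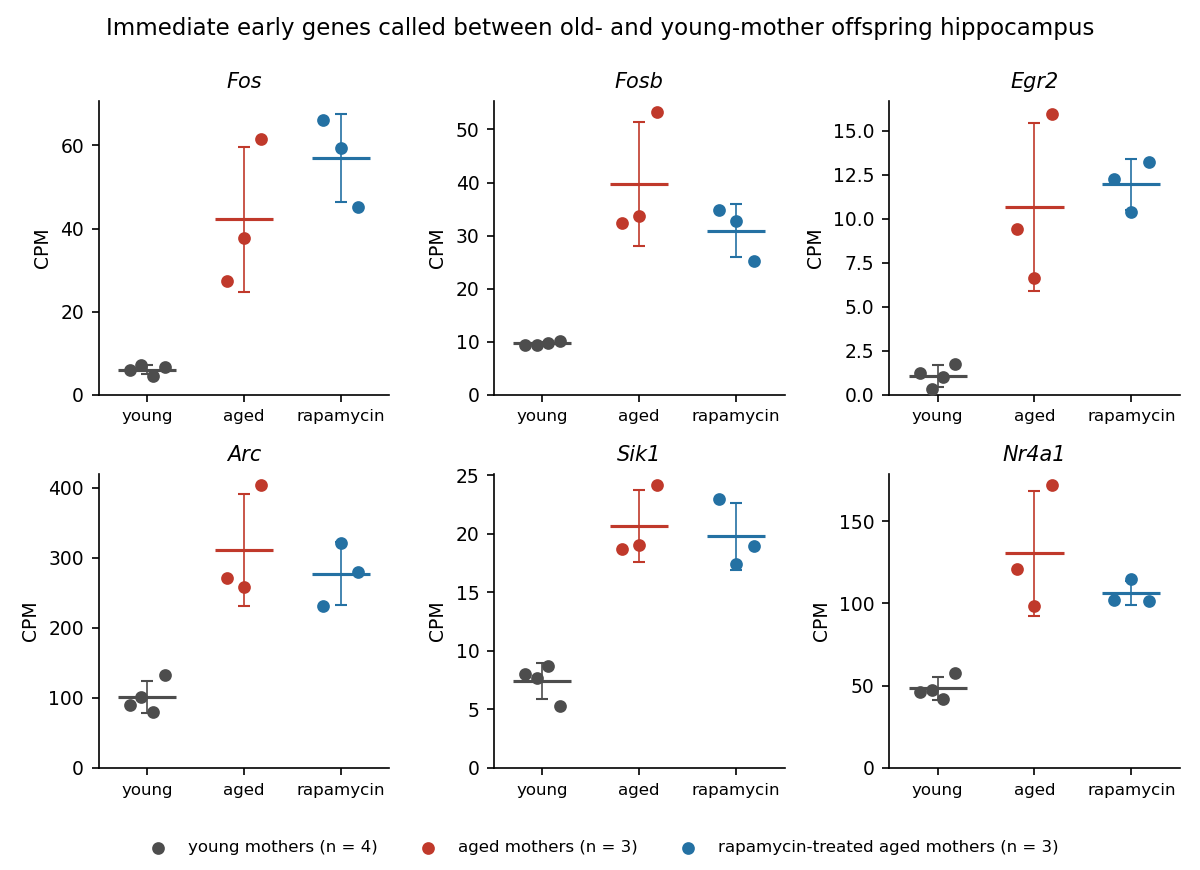
TMM-scaled CPM (linear axis from 0) of the 6 called genes in each of the 10 libraries, by mother's group. Points are libraries, horizontal lines group means and error bars SD; for each gene all 6 old-mother points lie above the 4 young-mother points.

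The 150 bases before a RefSeq start of 4 of these genes are shown because the genes moved together and CREB, which activates them in neurons, binds the letters TGACG. They come from RefSeq for GRCm38.p6. Where RefSeq lists several starts, the one nearest a main GENCODE transcript was taken, and for Egr2 and Nr4a1 it lies inside the gene span given above, which begins with another transcript. The Fosb window, from 19310046, also reaches into its span, which ends at 19310051, so its last bases lie within the annotated gene. Of the 6 called genes Fos, Fosb, Egr2 and Nr4a1 matched an entry, and Sik1 and Arc did not. Sequences read 5′ to 3′ on the gene's strand, and capitals mark TGACG or its reverse complement CGTCA.

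Fos (chr12:85473740-85473889, + strand): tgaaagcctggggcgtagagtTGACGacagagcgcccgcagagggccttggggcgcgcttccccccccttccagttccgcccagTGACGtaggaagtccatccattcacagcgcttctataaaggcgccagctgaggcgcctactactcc
Fosb (chr7:19310046-19310195, - strand): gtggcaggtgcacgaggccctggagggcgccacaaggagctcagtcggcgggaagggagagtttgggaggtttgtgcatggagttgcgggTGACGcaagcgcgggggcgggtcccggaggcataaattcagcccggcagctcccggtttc
Egr2 (chr10:67537719-67537868, + strand): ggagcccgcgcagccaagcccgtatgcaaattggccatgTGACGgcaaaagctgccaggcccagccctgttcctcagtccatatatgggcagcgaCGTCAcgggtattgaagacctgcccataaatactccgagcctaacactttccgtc
Nr4a1 (chr15:101266696-101266845, + strand): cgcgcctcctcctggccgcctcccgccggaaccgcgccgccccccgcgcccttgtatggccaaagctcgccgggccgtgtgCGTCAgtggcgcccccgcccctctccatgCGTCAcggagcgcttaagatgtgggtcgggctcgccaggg

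All 4 windows hold the letters on one strand or the other, and 13.3% of the 32851 promoter windows of this length do. The first capital letter stands 129 and 66 bases before the start in Fos, 60 in Fosb, 111 and 55 in Egr2 and 69 and 40 in Nr4a1. The 250 bases before the start of Egr2 also hold 1 CArG box, the motif bound by SRF, which 1.47% of promoter windows of 250 bases hold. Those of Fos, Fosb and Nr4a1 hold 0, and bases further upstream were not searched. These matches describe the sequence only, and no binding was measured here.

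The list of immediate early genes, chosen with earlier results of these data known, held 44 genes, all of them tested. Of these, 6 were called higher and 0 lower, and 28 lay higher and 0 lower at an unadjusted p under 0.05. At that unadjusted p 2.12% of all genes tested lay higher and 1.16% lower. Above 0 were 38 members and below 0 were 6, against 7187 and 7496 of all genes tested. The median log2 fold change of the list was 0.56, and that of all genes was -0.0036. All 6 old-mother libraries lay above the 4 young-mother ones in 20 of the 44 members, or 45.5%, and the reverse held in 0. Summed over the list, levels were 2454 to 3270 CPM in the aged-mother group, 2491 to 2596 CPM in the rapamycin group and 1605 to 1908 CPM in the young-mother group. Because these are bulk samples, fewer cells of a type and less RNA per cell cannot be told apart.

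**Figure D2:**
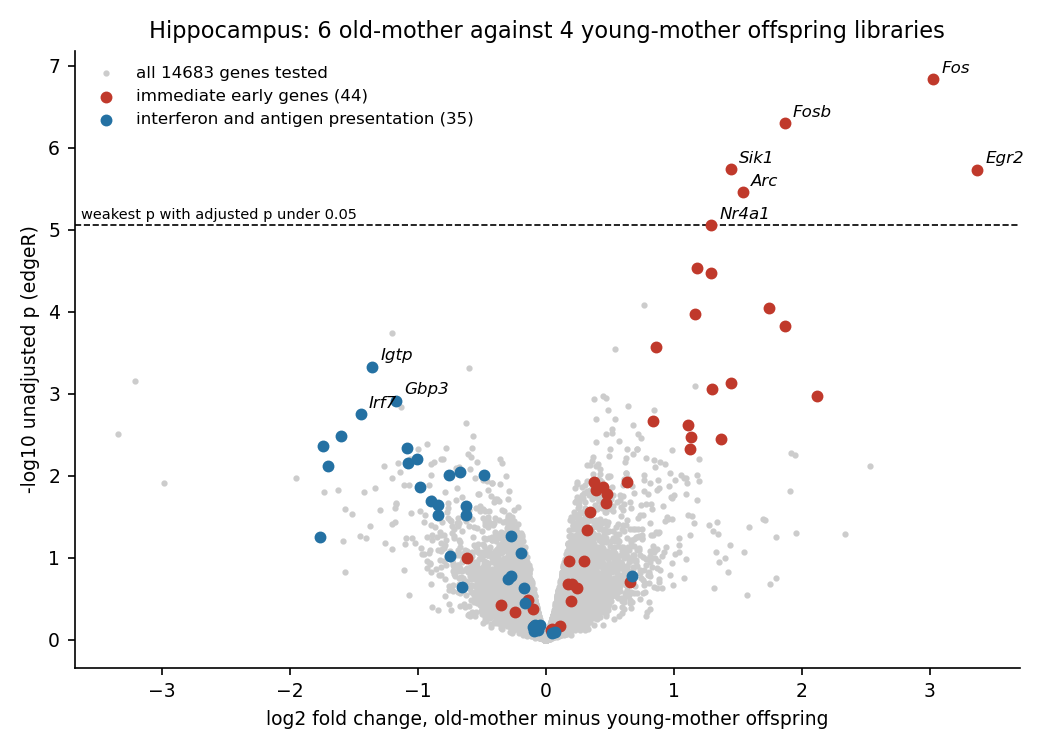
Log2 fold change of the old-mother side against the young-mother side (x axis) and -log10 of the unadjusted edgeR p (y axis) for 14683 genes, with 44 immediate early genes in red and 35 interferon and antigen presentation genes in blue. The 6 genes at or above the dashed line are all immediate early genes on the right, while 32 of the 35 blue points lie left of 0. Both lists were chosen with earlier results of these data known.

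DESeq2 called 15 of the 44 members higher and 0 lower. Of the 16226 genes with an adjusted p in DESeq2, it called 21 higher and 8 lower. The next members are named after their values were seen, since they did not pass in edgeR. Among them DESeq2 called Junb, Egr4, Egr1, Nr4a2, Npas4, Dusp1, Btg2, Cyr61 and Ier2. In the AP-1 family, Junb, a partner of Fos, stood at 117, 109 and 172 CPM in the aged-mother group, 109.5, 158 and 112 CPM in the rapamycin group and 59.4, 66.0, 42.4 and 60.2 CPM in the young-mother group. The sides did not overlap, and the log2 fold change was 1.19 ± 0.18 (edgeR adjusted p = 0.0610). It passed in edgeR with no filter on low counts (0.0439) and at a minimum of 10 CPM (0.0468). Junb and Prdx2 overlap in the annotation, and how reads in the shared stretch were counted is not given in the sources used here. Jun itself differed by 0.39 ± 0.14 and the stress-induced factor Atf3 by 1.37 ± 0.38, both without overlap between the sides, and Fosl2 differed by 0.47 ± 0.18 with overlap.

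In the Egr family, whose zinc fingers bind GC-rich promoters, Egr4 stood at 65.5, 53.5 and 81.9 CPM in the aged-mother group, 40.1, 55.7 and 51.0 CPM in the rapamycin group and 22.8, 20.3, 20.9 and 30.7 CPM in the young-mother group. It differed by 1.29 ± 0.20 on the log2 scale, with the same edgeR adjusted p as Junb, 0.0610. Egr1, the best known member, stood at 216, 173 and 308 CPM in the aged-mother group, 187, 206 and 204 CPM in the rapamycin group and 103, 74.8, 75.6 and 131 CPM in the young-mother group. It differed by 1.16 ± 0.20 (edgeR adjusted p = 0.141), and no library of one side reached into the other. Egr3 overlapped between the sides and differed by 0.34 ± 0.14.

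Among the nuclear receptors, Nr4a2 stood at 91.3, 87.1 and 103 CPM in the aged-mother group, 81.8, 73.0 and 53.5 CPM in the rapamycin group and 41.7, 51.9, 40.0 and 46.3 CPM in the young-mother group, and differed by 0.86 ± 0.17 (edgeR adjusted p = 0.280). Nr4a3 differed by 0.25 ± 0.19 and overlapped. Npas4, a factor that neurons induce selectively on calcium entry, stood at 12.0, 12.8 and 23.5 CPM in the aged-mother group, 36.3, 23.3 and 37.4 CPM in the rapamycin group and 3.46, 1.92, 5.38 and 11.3 CPM in the young-mother group. Its highest young-mother library, young 4, lay just under the lowest aged-mother one, and the log2 fold change was 2.12 ± 0.49 (edgeR adjusted p = 0.680).

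Members that damp the response or act in other ways follow. Dusp1, a phosphatase that switches MAP kinases off, stood at 19.2, 27.0 and 38.7 CPM in the aged-mother group, 64.5, 47.5 and 48.1 CPM in the rapamycin group and 10.9, 14.4, 10.97 and 12.5 CPM in the young-mother group. The rapamycin libraries were all above the aged-mother ones, and the log2 fold change of both groups together against young was 1.75 ± 0.30 (edgeR adjusted p = 0.133). Btg2, which promotes mRNA decay, stood at 24.9, 20.4 and 30.0 CPM in the aged-mother group, 63.7, 45.7 and 61.6 CPM in the rapamycin group and 14.5, 15.7, 16.1 and 13.8 CPM in the young-mother group, with 1.45 ± 0.32 on the log2 scale (edgeR adjusted p = 0.578). The secreted matrix protein Cyr61 differed by 1.87 ± 0.34, Ier2 by 1.30 ± 0.29, the DNA repair and demethylation factor Gadd45b by 0.84 ± 0.21, Klf4 by 1.12 ± 0.29 and Klf2 by 1.13 ± 0.32, none with overlap between the sides. Dusp1 overlaps Ergic1 in the annotation, with the same limit as for Junb.

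Of the 6 members below 0, Bdnf, a growth factor for neurons, stood at 44.5 to 65.3 CPM on the old-mother side and 50.0 to 72.4 CPM on the young-mother side, and the log2 fold change was -0.14 ± 0.13. Homer1, a scaffold of the postsynaptic density, differed by -0.10 ± 0.12, Nptx2, which clusters AMPA receptors, by -0.24 ± 0.31, and the prostaglandin synthase Ptgs2 by -0.35 ± 0.38. Inhba differed by -0.61 ± 0.34 and the small GTPase Rheb, an activator of mTOR, by -0.09 ± 0.20. None of these 6 passed the test, and all of them overlapped between the sides.

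To describe what the aged-mother and the rapamycin group share, each was also set against the young-mother group in a fit of all 3 groups. Both comparisons use the same 4 young-mother libraries, so they are not independent and their values are only given side by side. The aged-mother group had 7 of 14877 genes called higher (0.0471%) and 0 lower, and the rapamycin group had 8 called higher (0.0538%) and 0 lower. At an unadjusted p under 0.05 in edgeR, 301 genes lay higher (2.02%) and 221 lower (1.49%) in the aged-mother group, 522 in all (3.51%). In the rapamycin group 341 lay higher (2.29%) and 199 lower (1.34%), 540 in all (3.63%), and DESeq2 called 11 genes lower in the first comparison and 6 in the second. All of the genes called by edgeR in either comparison were in the list of immediate early genes. That list was chosen with earlier results of these data known. Its median log2 fold change was 0.64 in the aged-mother group and 0.39 in the rapamycin group, against -0.01 and 0.01 over all genes.

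Fos differed from young by 2.79 ± 0.27 in the aged-mother group and by 3.23 ± 0.28 in the rapamycin group, with edgeR adjusted p of 0.00576 and 0.00154. For Fosb the values were 2.04 ± 0.19 and 1.67 ± 0.19 (edgeR adjusted p = 0.00576 and 0.0114), and for Egr2 3.28 ± 0.43 and 3.45 ± 0.43 (edgeR adjusted p = 0.0279 and 0.0179). Sik1 differed by 1.48 ± 0.19 and 1.41 ± 0.19 (edgeR adjusted p = 0.0279 and 0.0356). These 4 genes passed in each group, but not under every alternative. With only the 2 groups of a comparison in the fit, Fos and Fosb passed in each and Egr2 and Sik1 in neither. Without young 1, none of the 4 passed in the aged-mother group and Fos did in the rapamycin group. No label pairs the libraries, but same-number rapamycin and young-mother libraries correlated in these data, although rapamycin 1 correlated more with young 3 (0.53) than with young 1 (0.19). With the number as a replicate block the rapamycin comparison called 4 genes, Btg2, Egr2, Fos and Npas4, without Fosb and Sik1. Arc differed by 1.62 ± 0.21 and 1.46 ± 0.21 and Nr4a1 by 1.43 ± 0.18 and 1.14 ± 0.18, with edgeR adjusted p of 0.0279 and 0.0509 for Arc and 0.0279 and 0.111 for Nr4a1. Egr4 (1.501 ± 0.19 and 1.05 ± 0.19) also passed in the aged-mother group, and Btg2 (0.74 ± 0.16 and 1.92 ± 0.16), Dusp1 (1.22 ± 0.22 and 2.13 ± 0.23), Cyr61 (1.31 ± 0.27 and 2.28 ± 0.27) and Ier2 (0.79 ± 0.23 and 1.68 ± 0.23) passed in the rapamycin group.

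The 2 old-mother groups were then compared with each other, which tests where they differ. With edgeR 0 of 14877 genes were called (0%) and 377 lay higher (2.53%) and 296 lower (1.99%) in the rapamycin group at an unadjusted p under 0.05, in all 673 (4.52%). DESeq2 called 11, 3 of them higher and 8 lower in the rapamycin group. For the 6 genes called between the sides the differences of rapamycin from aged were 0.43 ± 0.28 for Fos (95% interval -0.18 to 1.04), -0.36 ± 0.20 for Fosb (-0.80 to 0.08), 0.16 ± 0.41 for Egr2 (-0.73 to 1.06) and -0.17 ± 0.23 for Arc (-0.67 to 0.34). Sik1 differed by -0.06 ± 0.20 (-0.51 to 0.38) and Nr4a1 by -0.30 ± 0.20 (-0.74 to 0.14). Each of these intervals holds 0, and those of Egr2 and Fos also hold differences of 1 log2 unit, so the groups are not shown to be alike.

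Among the members, Btg2 had the largest difference between the 2 old-mother groups relative to its error, 1.18 ± 0.18 log2 units higher in the rapamycin group (edgeR adjusted p = 0.531). DESeq2 called it. Klf2 (1.07 ± 0.25), Dusp1 (0.92 ± 0.24), Cyr61 (0.97 ± 0.28) and Ier2 (0.88 ± 0.25) also lay higher in the rapamycin group, each with an edgeR adjusted p of 0.796. Nr4a2 (-0.43 ± 0.17), Egr4 (-0.45 ± 0.21) and Arl4d, a small GTPase (-0.76 ± 0.31), lay lower. These were picked after their values were seen.

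**Figure D3:**
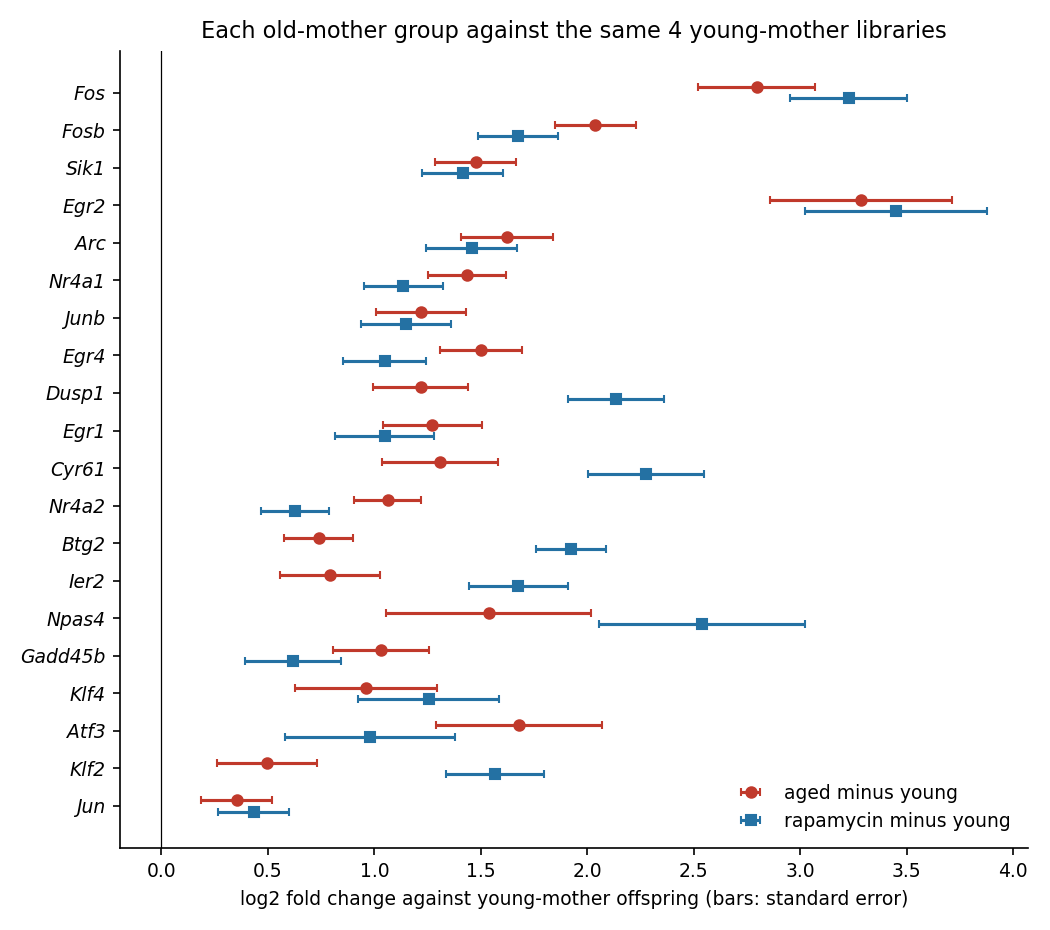
Log2 fold change against the same 4 young-mother libraries for the aged-mother group (red circles) and the rapamycin group (blue squares), with standard errors, for the 20 immediate early genes whose 6 old-mother libraries all lie above the young ones. All points lie right of 0, which follows from how these genes were chosen, and the other members of the list are not shown. Btg2, Dusp1, Cyr61, Ier2 and Klf2 lie further right in the rapamycin group, a difference that did not pass in edgeR.

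Interferon-inducible genes lay lower on the old-mother side, and none of them passed the test. The list of interferon and antigen presentation genes had 35 of 41 members tested, of which 0 were called. At an unadjusted p under 0.05, 18 lay lower and 0 higher, against 1.16% and 2.12% of all genes. Below 0 were 32 members and above 0 were 3. The list's median log2 fold change was -0.65, with -0.57 in the aged-mother group and -0.60 in the rapamycin group. Most members had low counts. At a minimum mean of 10 CPM 9 members remained, 7 below 0 and 2 above, with a median of -0.17. Of those 9, 0 lay lower at an unadjusted p under 0.05. In 4 of 35 members, or 11.4%, all 6 old-mother libraries lay below all 4 young-mother ones, as they did in 56 of all 14683 genes (0.381%). DESeq2 called 2 members lower, Igtp and Gbp3, and 8 of 16226 genes. The others of those 8, not in this list, were Gbp7, Tgtp1, Tgtp2, Ifi47, Prss23 and Lcn2. Summed levels were 296 to 356 CPM in the aged-mother group, 269 to 339 CPM in the rapamycin group and 370 to 412 CPM in the young-mother group, with no overlap between the sides.

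Of the 5 genes of smallest p below 0, 4 encode interferon-inducible GTPases. Gbp7, a guanylate-binding protein, stood at 4.78, 4.22 and 3.82 CPM in the aged-mother group, 3.55, 2.80 and 5.83 CPM in the rapamycin group and 8.98, 6.44, 11.3 and 11.6 CPM in the young-mother group. All 6 old-mother libraries were below the lowest young-mother one, and the log2 fold change was -1.20 ± 0.22 (edgeR adjusted p = 0.204). Igtp, also called Irgm3, stood at 2.56, 2.05 and 1.15 CPM in the aged-mother group, 1.01, 1.87 and 1.81 CPM in the rapamycin group and 3.05, 3.84, 5.33 and 5.53 CPM in the young-mother group, and differed by -1.35 ± 0.28 (edgeR adjusted p = 0.424). It overlaps the related gene Irgm2 in the annotation. Gbp3 stood at 1.78, 2.05 and 1.81 CPM in the aged-mother group, 2.23, 2.55 and 2.86 CPM in the rapamycin group and 3.46, 2.85, 6.995 and 6.51 CPM in the young-mother group, with rapamycin 3 and young 2 at nearly the same level, and differed by -1.17 ± 0.27 (edgeR adjusted p = 0.685).

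Tgtp1, a T-cell-specific GTPase with a near-identical copy, Tgtp2, stood at 0.111, 0.166 and 0.301 CPM in the aged-mother group, 0.101, 0.249 and 0.583 CPM in the rapamycin group and 1.23, 0.186, 3.72 and 4.24 CPM in the young-mother group. The old-mother values were near the level of 3 counts, and young 2 lay among them. The log2 fold change was -3.21 ± 0.70 (edgeR adjusted p = 0.569), and without young 2 it was -3.58 and passed, with an edgeR adjusted p of 0.0422. The fifth gene, Prss23, a secreted serine protease, stood at 18.5, 16.1 and 14.8 CPM in the aged-mother group, 17.9, 17.2 and 15.3 CPM in the rapamycin group and 24.2, 19.8, 28.1 and 28.5 CPM in the young-mother group. It differed by -0.60 ± 0.13 without overlap (edgeR adjusted p = 0.424), and it overlaps an antisense gene, Prss23os. DESeq2 called all 5 of these genes lower. Gbp7 lies on chromosome 3 from 142530342 to 142550149, Gbp3 on chromosome 3 from 142560026 to 142573209 and Igtp on chromosome 11 from 58199556 to 58207591.

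Irf7, the transcription factor that drives type I interferon genes, stood at 1.00, 0.721 and 0.603 CPM in the aged-mother group, 1.78, 0.684 and 1.05 CPM in the rapamycin group and 3.99, 1.36, 2.47 and 2.84 CPM in the young-mother group. It differed by -1.44 ± 0.36 (edgeR adjusted p = 0.821) and overlapped through young 2 and rapamycin 1. Oas1a, which makes the signal that activates RNase L, differed by -1.60 ± 0.43, at 0.111 to 0.525 CPM on the old-mother side and 0.604 to 1.12 CPM on the young-mother side, with 2 of its old-mother libraries under 3 counts. Chosen after their values were seen, the related Oasl2 differed by -0.67 ± 0.21 (1.63 to 2.84 CPM on the old-mother side and 3.09 to 3.47 CPM on the young-mother side) and the immunoproteasome subunit Psmb9 by -0.62 ± 0.24 (0.964 to 1.86 CPM on the old-mother side and 1.94 to 3.05 CPM on the young-mother side), both without overlap. Psmb9 overlaps the peptide transporter gene Tap1.

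Members that carry antigen presentation itself follow. B2m, the light chain of class I molecules, differed by -0.27 ± 0.18, with 51.0 to 105 CPM on the old-mother side and 79.6 to 108 CPM on the young-mother side. H2-K1, a class I heavy chain, stood at 1.67, 4.38 and 4.12 CPM in the aged-mother group, 2.79, 0.124 and 3.21 CPM in the rapamycin group and 13.6, 9.90, 0.0503 and 13.6 CPM in the young-mother group, so rapamycin 2 and young 3, on opposite sides, were both under 3 counts. CD1 is an outbred stock and no genotype is given, so for this polymorphic gene allele and level cannot be told apart. H2-D1 differed by -0.75 ± 0.41 and the transporter Tap2 by -0.19 ± 0.10. These 4 were chosen after their values were seen.

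Microglia and endothelial cells both make such transcripts, and their markers are given beside this result. Of 20 microglial markers 0 were called, 8 lay above 0 and 12 below, and their summed level was 650 to 1086 CPM on the old-mother side and 626 to 1266 CPM in the young-mother group. Of 20 endothelial markers 0 were called, 8 lay above 0 and 12 below, with sums of 336 to 701 CPM and 308 to 563 CPM. The median of the endothelial markers was -0.54 in the aged-mother group, near the -0.57 of the interferon list, and 0.16 in the rapamycin group, and that of the microglial markers was -0.03 and -0.04. Both sums overlapped between the sides, and no member of either list was at 0 in every library. The endothelial marker of smallest p was Ly6a, which is itself interferon-inducible, at -1.26 ± 0.39. It was called lower once the ribosomal protein level was a covariate (-1.25, edgeR adjusted p = 0.0406). The part of these cells in the lower interferon-inducible levels was not tested.

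**Figure D4:**
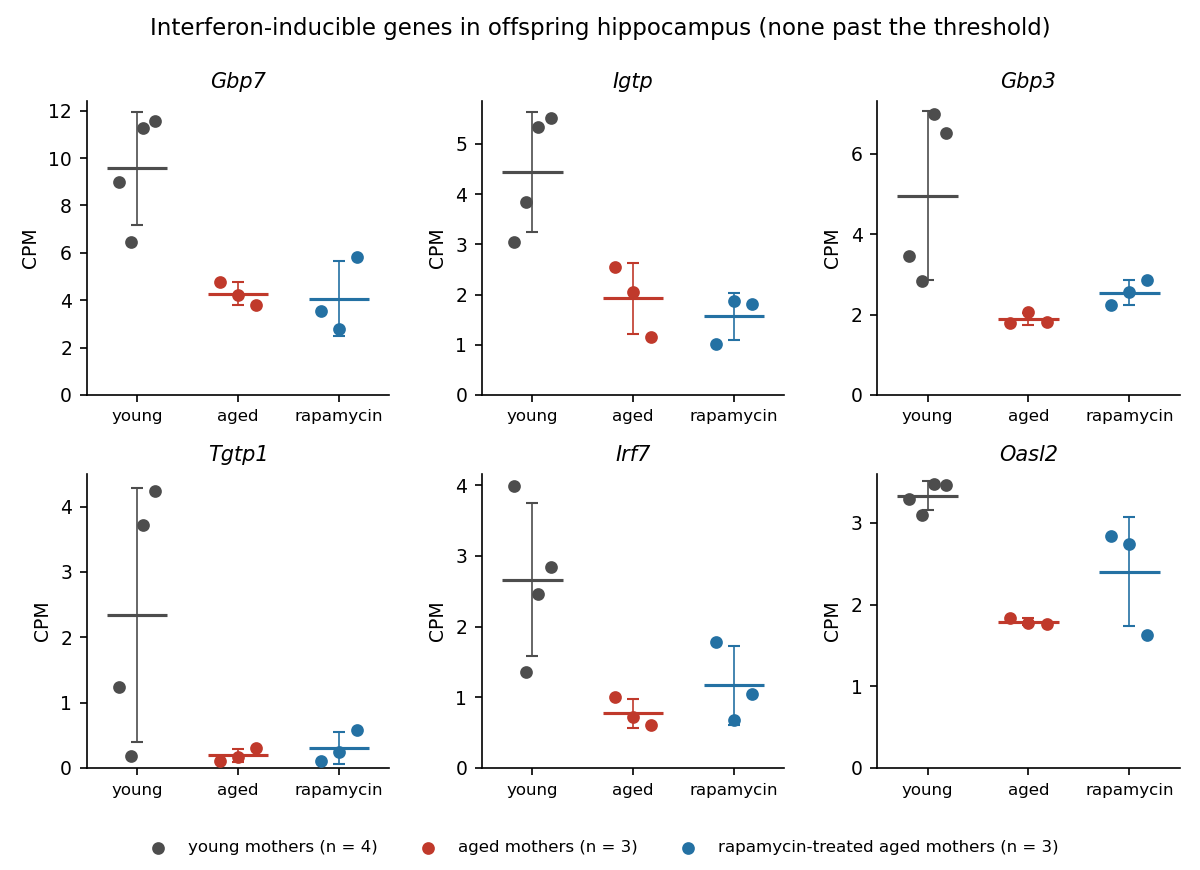
TMM-scaled CPM (linear axes from 0) of 6 interferon-inducible genes in each library; lines are group means and error bars SD. The old-mother points lie below the young-mother ones for Gbp7, Igtp and Oasl2, while young 2 lies among the old-mother libraries for Tgtp1 and Irf7 and meets rapamycin 3 for Gbp3; none of the 6 passed in edgeR.

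Glucocorticoid-responsive genes are induced through the glucocorticoid receptor by corticosterone. Of 28 tested, 0 were called. At an unadjusted p under 0.05, 11 lay higher and 0 lower, against 2.12% and 1.16% of all genes. Above 0 were 22 and below 0 were 6, with a median of 0.34 (aged-mother group 0.40, rapamycin group 0.18). The list shares Dusp1, Arl4d, Per1 and Errfi1 with the immediate early genes. Tsc22d3, which encodes the glucocorticoid-induced leucine zipper protein, stood at 151, 160.1 and 107 CPM in the aged-mother group, 86.3, 95.8 and 66.4 CPM in the rapamycin group and 34.6, 61.5, 44.0 and 57.9 CPM in the young-mother group. Its sides did not overlap, and it differed by 1.17 ± 0.26 (edgeR adjusted p = 0.586). DESeq2 called it and Dusp1 higher, and 1 member lower, Lcn2, an iron-binding acute-phase protein that edgeR's filter left out. Lcn2 stood at 11.3, 9.28, 0.403 and 0.103 CPM in the young-mother group and at 0 to 0.203 CPM on the old-mother side, so it was high in young 1 and young 2 alone. The kinase Sgk1 stood at 186, 177 and 122 CPM in the aged-mother group, 111, 78.6 and 103 CPM in the rapamycin group and 67.0, 93.8, 74.4 and 65.1 CPM in the young-mother group and differed by 0.79 ± 0.23, with overlap through rapamycin 2. Fkbp5, a co-chaperone of the receptor chosen after its value was seen, differed by 0.09 ± 0.11. The summed level of the list overlapped, at 2114 to 3005 CPM against 1939 to 3110 CPM in the young-mother group.

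In the clock list 0 of 24 genes were called, 20 were above 0 and 4 below, and the median was 0.19. At an unadjusted p under 0.05, 6 of the list lay higher and 1 lower, against 2.12% and 1.16% of all genes. Its summed level was 1851 to 1998 CPM on the old-mother side and 1556 to 1772 CPM in the young-mother group, without overlap. Tef, an output transcription factor of the clock, stood at 418 to 551 CPM on the old-mother side and 352 to 408 CPM on the young-mother side and differed by 0.28 ± 0.10. Hlf, of the same family, differed by 0.40 ± 0.11, with 1 old-mother library, rapamycin 3, below the highest young-mother one. Ciart, a repressor, differed by 0.42 ± 0.15, and Per1 by 0.48 ± 0.17. None of these 4 passed, and the time of day of collection is not given in the sources used here.

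Markers of GABAergic interneurons, the inhibitory cells of the hippocampus, were lower in sum on the old-mother side. Of 28 markers 0 were called, and 7 were above 0 and 21 below, with a median of -0.11. At an unadjusted p under 0.05, 1 marker lay lower, against 1.16% of all genes. The sum was 2252 to 2667 CPM on the old-mother side and 2680 to 2850 CPM in the young-mother group, and no marker was at 0 in every library. The margin between the sums was narrow, with rapamycin 1 at 2667 CPM and young 1 at 2680 CPM. All 6 old-mother libraries lay below all 4 young-mother ones in 0 of the 28 markers, against 0.381% of all genes. Vip, a neuropeptide of interneurons that inhibit other interneurons, stood at 22.0, 25.1 and 30.5 CPM in the aged-mother group, 23.6, 25.4 and 18.95 CPM in the rapamycin group and 26.9, 39.4, 29.0 and 37.7 CPM in the young-mother group and differed by -0.45 ± 0.15. Gad1, the enzyme that makes GABA, differed by -0.18 ± 0.11 and overlapped. The part of these markers in the immediate early gene result was not tested.

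Thalamus and habenula markers, which would come from neighbouring tissue, had 0 of 24 called and 21 above 0 (median 0.26). The median was 0.29 in the aged-mother group and 0.04 in the rapamycin group, and without aged 1 that of the sides was 0.096. At an unadjusted p under 0.05, 4 lay higher, against 2.12% of all genes. Their sums were 509 to 656 CPM against 455 to 536 CPM. Cortex and subiculum markers, which include Nr4a2, had 0 of 21 called, 2 higher at that unadjusted p and 16 above 0 (median 0.23). The sums of this list were 577 to 812 CPM against 606 to 664 CPM. Both sums overlapped, and the part of these markers in the immediate early gene result was not tested. Astrocyte, oligodendrocyte, mural, choroid plexus, striatal and mossy cell sums overlapped between the sides as well, and 0 of their members were called. Astrocyte markers had 17 of 20 members above 0 (median 0.15) and oligodendrocyte markers 22 of 28 (median 0.17). Markers of CA2 and CA3 pyramidal cells, whose sums overlapped, had 0 of 17 called, 4 above 0 and 13 below. Their median was -0.19, with -0.16 in the aged-mother group and -0.22 in the rapamycin group. At an unadjusted p under 0.05 in edgeR, 2 of them lay lower, against 1.16% of all genes. The lists for oxidative phosphorylation, heat shock, glutamate receptors, synaptic vesicles, potassium channels, autophagy, chromatin, imprinted genes, neurogenesis and neuropeptides had 0 genes called and medians of -0.09 to 0.02, and the 3 tested blood cell genes also gave 0 calls. Of 79 cytosolic ribosomal proteins 72 lay above 0 and 7 below, none at an unadjusted p under 0.05, with a median of 0.28 in the aged-mother group and -0.10 in the rapamycin group. With the ribosomal protein level of each library as a covariate, all 6 genes stayed called.

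Genes of the mTOR pathway, the target of the drug given to 1 set of mothers, showed 0 of 48 called and a median of 0.02. At an unadjusted p under 0.05, 2 lay higher and 0 lower, against 2.12% and 1.16% of all genes. Mtor differed between the sides by -0.03 ± 0.20, Rptor by -0.04 ± 0.13, the ribosomal S6 kinase Rps6kb1 by -0.03 ± 0.14 and the translation repressor Eif4ebp1 by -0.06 ± 0.47. Flcn, which links amino acid supply to mTOR, had the smallest p of the list. It stood at 48.9 to 53.8 CPM on the old-mother side and 40.6 to 46.2 CPM on the young-mother side, a difference of 0.23 ± 0.08 that did not pass.

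**Figure D5:**
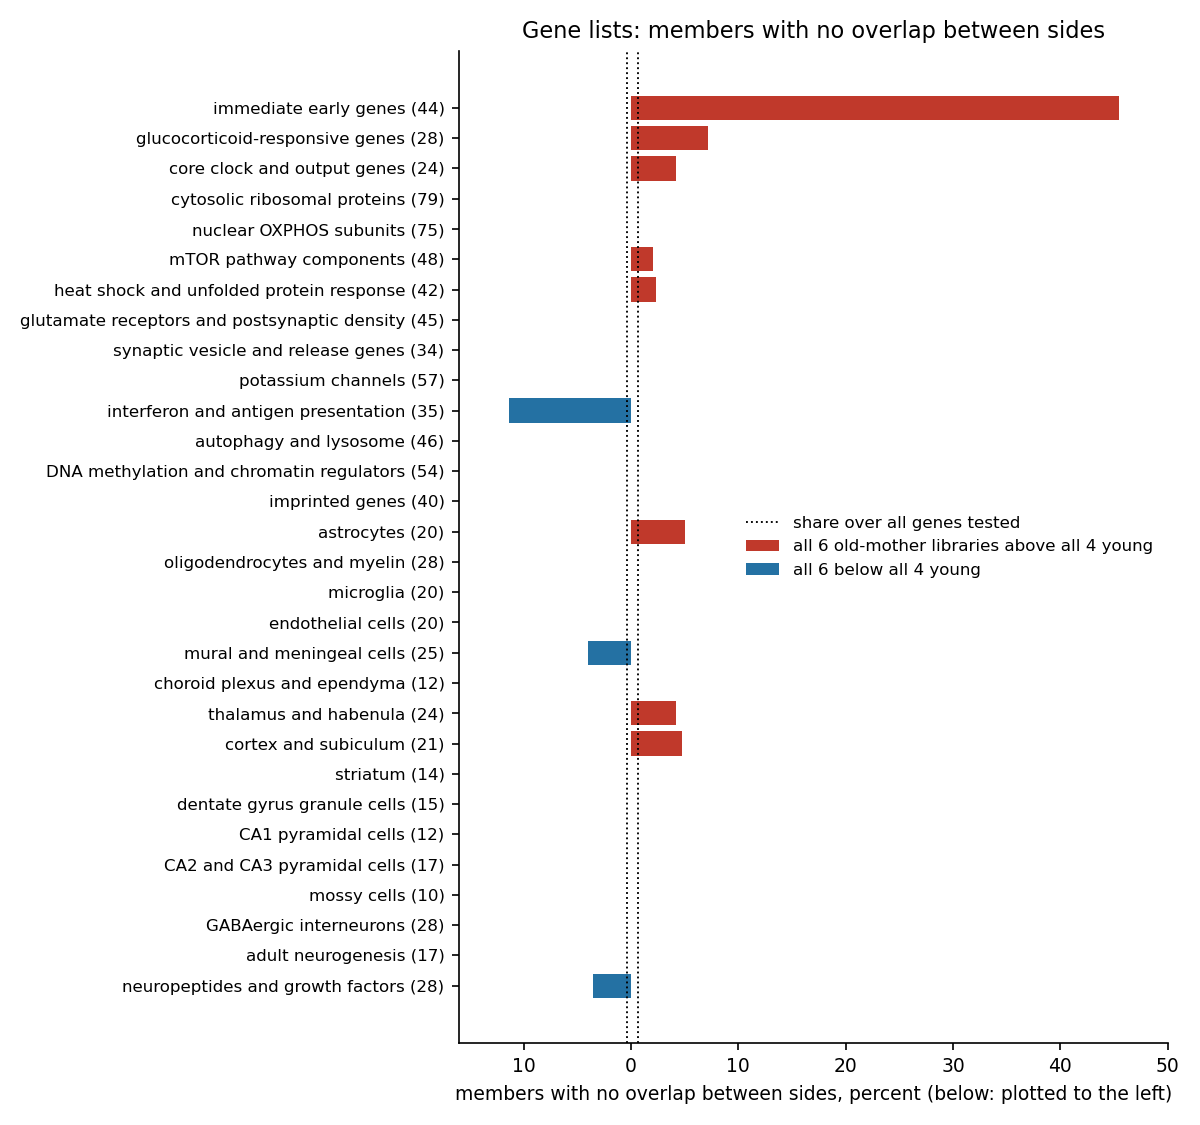
Share of each list's tested members (number in brackets) whose 6 old-mother libraries all lie above (red, to the right) or all below (blue, to the left) the 4 young-mother ones, in percent; dotted lines give the same shares over all 14683 genes, 0.667% and 0.381%. Immediate early genes reach 45.5% above and interferon and antigen presentation genes 11.4% below. The lists were chosen with earlier results of these data known.

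The call of 6 genes depended on single libraries. Without young 1 it was 2 genes, Fos and Fosb, and without young 3 it was 3, with Sik1 added. Nr4a1, the weakest of the 6, lost its call without young 1, young 2, young 3, aged 1 or rapamycin 2. Fos and Fosb were called in every alternative run for this comparison. On simulated data with 6 and 4 libraries the test called 94% of 3-fold changes (1.58 log2 units), 70% of 2-fold and 24% of 1.5-fold changes. Smaller differences would thus often be missed. In the hippocampus libraries, differences above 1.58 log2 units did not all pass in the main fit either. Npas4 (2.12), Cyr61 (1.87) and Dusp1 (1.75) did not, while Egr2, Fos and Fosb did. The share of changes that the test finds in the hippocampus libraries themselves was not tested.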

How the data were processed

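The authors deposited one table of whole-number read counts per gene for each library, with no normalization. Per the submitters' processing notes these used STAR, HTSeq and mm10; no version, annotation or strand setting is given in the sources used here. Of each table, 24491 rows are gene symbols and 5 are summaries without a gene, which entered neither library sizes nor tests. Of all counted reads, the 5 summaries included, reads outside genes came to 11.6% to 16.0%, those not unique to 5.09% to 8.01% and ambiguous ones to 1.66% to 1.92%.

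After filterByExpr and TMM scaling, edgeR 4.0.16 (R 4.3.3, limma 3.58.1) gave quasi-likelihood F-tests. P-values were adjusted by Benjamini-Hochberg across every tested gene, and genes under 0.05 were called. The main fit held 2 sides, 6 libraries against 4 (14683 genes, biological coefficient of variation 23.8%), and a fit of 3 groups (14877 genes) gave the comparisons of single groups. Errors are standard errors and intervals are at 95%. The code was tested on simulated data (14576 genes, 200 of them changed), where 155 genes were called and 12 of these calls were false. Same-number libraries were checked for pairing by the correlation of their deviations from the group means. Of 9 pairs 6 exceeded 0.1 (-0.19 to 0.65), among them all 3 of rapamycin with young (0.19, 0.65 and 0.34). Pairs of unlike number ran from -0.59 to 0.53, the highest being rapamycin 1 with young 3, so these values do not establish a pairing. The labels give none either, and the replicate block served only as an alternative. No 2 libraries of a group agreed within sampling noise (chi-square per degree of freedom 12.3 to 131). Counts are reads without molecular identifiers, so the level of 3 counts covers counting error only.

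The members and gene lists were chosen with earlier results of these data known. Named by rule were up to 12 called genes per direction with no overlap, a mean of at least 2 log2 CPM and the largest change shared by both old-mother groups (where fewer than 5 passed, the 5 of smallest p), up to 4 genes of smallest p in each of 31 lists, and 4 mTOR genes; not all genes of the rule are described. Alternatives were RLE scaling, no filter, a minimum mean of 10 CPM, robust dispersions, DESeq2 1.42.0, the other group structure, a replicate block, thinning to the smallest total, a ribosomal covariate and leaving out each library. Coordinates come from GENCODE M21 (GRCm38, which mm10 equals). Figures were drawn with matplotlib 3.10.9 in Python 3.11.15. Oocyte libraries were not used.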

Additional observations from a re-analysis of the deposited data

Results flagged for a closer look

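In the young-mother group of 4 libraries, 70 genes named in the text were screened for a single library far from the others, measured as its gap to the nearest library divided by the range of the group. Chance flags about 1 in 20 groups, and 2 genes were flagged, both for young 2. Rps6kb1, the S6 kinase, stood at 48.9 CPM in young 2 and at 56.1 to 56.7 CPM in the other young-mother libraries. Tap1, a peptide transporter of antigen presentation, stood at 4.21 CPM in young 2 and at 5.59 to 5.81 CPM in the others.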

How the results depend on the processing

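The count of 6 genes on the old-mother side was the same 6 with RLE scaling, robust dispersions or thinning, and 7 with no filter. At a minimum of 10 CPM it was also 6, but only 5 were shared. Junb was called there, and Egr2, which that filter left out, was not. The count was 29 with DESeq2 (21 higher, 8 lower), 11 with the ribosomal covariate (10 higher, 1 lower) and 10 in the fit of 3 groups. Leaving out 1 library gave 2 to 7 genes, with 2 genes without young 1 and 3 without young 3. Without young 2 it gave 7, of which 5 were higher and 2, Tgtp1 and Tgtp2, lower. Not every same-number pair across the 3 groups correlated above 0.1, and with a replicate block 5 genes were called, without Nr4a1.

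For the aged-mother group the count of 7 was 50 with DESeq2 (39 higher, 11 lower), 11 with the covariate, 2 with only the 2 groups compared and 9 with the replicate block. It ranged from 0 (without young 1) to 15 (without young 2) over single libraries, and was 2 without aged 1, aged 3, rapamycin 1, rapamycin 3 or young 3. For the rapamycin group the count of 8 was 5 at a minimum of 10 CPM, 31 with DESeq2 (25 higher, 6 lower), 4 with the replicate block, 16 with the covariate and 5 with only the 2 groups. Leaving out 1 library gave 2 to 10: 2 without young 1, 3 without rapamycin 1, 4 without young 3 and 5 without aged 1 or rapamycin 3. Between the old-mother groups the count of 0 was 11 with DESeq2 and 2 with only the 2 groups (Mocs2 and 2610507I01Rik, both lower), 0 with the replicate block and 0 to 1 over single libraries (Mocs2 without young 3). The cause of these shifts was not tested.

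Log2 fold changes near 0 changed sign: Rptor was 0.0505 with the replicate block, and Mtor 0.0091 with the covariate. Leaving out 1 library gave -0.177 to 0.0581 for Mtor, -0.12 to 0.0481 for Rptor, -0.105 to 0.0457 for Rps6kb1 and -0.267 to 0.201 for Eif4ebp1. No other gene that was recomputed changed sign. Depth was similar across libraries, and thinning to the smallest total left the same 6 genes called.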

Other observations

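Outside the lists, a few genes separated the sides without passing in edgeR, and those named here were chosen after their values were seen. Rrp8, a nucleolar methyltransferase that silences ribosomal DNA, had the smallest p after the immediate early genes Junb and Egr4. It stood at 11.5, 10.6 and 10.1 CPM in the aged-mother group, 10.6, 13.1 and 10.2 CPM in the rapamycin group and 6.63, 7.12, 5.54 and 6.61 CPM in the young-mother group, and differed by 0.77 ± 0.13 (edgeR adjusted p = 0.133). It overlaps Ilk on the other strand, and how shared reads were counted is not known. Tob2, an antiproliferative gene related to Btg2, stood at 36.4, 41.1 and 37.7 CPM in the aged-mother group, 37.7, 31.8 and 39.9 CPM in the rapamycin group and 24.6, 28.3, 27.3 and 22.9 CPM in the young-mother group, with 0.54 ± 0.11 on the log2 scale (edgeR adjusted p = 0.280). DESeq2 called both.

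Among heat shock genes, where 0 of 42 were called, the co-chaperone Dnajb1 stood at 60.01 to 94.1 CPM on the old-mother side and 47.8 to 57.2 CPM on the young-mother side and differed by 0.52 ± 0.14. Hspa1a, an inducible Hsp70, stood at 13.7, 11.3 and 12.5 CPM in the aged-mother group, 7.31, 7.96 and 7.93 CPM in the rapamycin group and 7.34, 7.18, 7.30 and 6.61 CPM in the young-mother group, so the aged-mother libraries lay above both other groups. Its difference between the rapamycin and aged-mother groups was -0.69 ± 0.15 (edgeR adjusted p = 0.796), called lower by DESeq2. Synpo2, an actin-binding protein in the thalamus and habenula list, stood at 5.87 to 10.0 CPM on the old-mother side and 4.13 to 4.77 CPM on the young-mother side (0.68 ± 0.18), and Mgp, a matrix protein of mural cells, at 1.86 to 3.50 CPM on the old-mother side and 3.51 to 7.49 CPM on the young-mother side (-0.93 ± 0.26). Neither passed in edgeR.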
